A study of Homo sapiens with 30 samples.

Results

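ATP-binding cassette (ABC) transporters and the major vault protein were followed by RNA-seq in human cell lines of diffuse large B cell lymphoma. The set holds every gene listed as protein-coding whose symbol is ABCA, ABCB, ABCC, ABCD, ABCE, ABCF or ABCG with a number, 46 genes, plus MVP, so 47 of the 60656 genes listed. By subfamily these were 12 ABCA, 9 ABCB, 11 ABCC, 4 ABCD, 1 ABCE, 4 ABCF and 5 ABCG genes; 12 ABC pseudogenes and non-coding entries were not taken. The study asked what doxorubicin, an anthracycline that poisons topoisomerase II, changes in 4 lymphoma lines, and how a line with acquired resistance differs from its parent. It has 30 libraries in 10 groups of 3 replicates.

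The 4 lines, OCI-LY19 and OCI-LY3 with HT and SUDHL5, were each sampled after 24 h in 0.2 µM doxorubicin and untreated at 0 h. Titles of the 24 h libraries also contain the word ctrl, and their treatment label was followed. No untreated library was taken at 24 h, so the drug and a day of culture change together and cannot be told apart. OCI-LY19R is a doxorubicin-resistant derivative of OCI-LY19, kept in 20 nM doxorubicin that was withdrawn 1 week before use, and OCI-LY19S is the sensitive parental culture grown without drug. The resistant cells are a single derivative, so resistance and its other culture history cannot be told apart. All groups are established B cell lymphoma lines, and every library is labelled wild type (WT).

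ABC proteins use ATP to move substrates across membranes, and a few subfamilies lost the membrane part and act on ribosomes instead. The pumps best known for carrying anthracyclines out of cells are ABCB1 (P-glycoprotein), ABCC1 (MRP1) and ABCG2 (breast cancer resistance protein), while most ABCA and several ABCG members move lipids and sterols, and others serve mitochondria, peroxisomes or lysosomes. MVP is not a transporter: it is the main protein of vaults, large barrel-shaped particles of the cytoplasm, and was found as a protein abundant in drug-resistant tumor cells.

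Levels are FPKM, the authors' read counts divided by gene length and by library depth. Whole reads recovered from these values summed over genes to between 15755368 and 37582110 per library, except that 1 OCI-LY19S library (replicate 3) had 118717156. B cell markers were expressed in every group: the sum of 5 markers (MS4A1, CD79A, CD79B, PAX5 and CD22) was 178 to 1440 FPKM per library. Single markers could be low: MS4A1 averaged 2.01 FPKM in OCI-LY19S and 10 FPKM in OCI-LY19R, and CD79B 18.3 and 8.78 FPKM. CD79A averaged 165 and 120 FPKM there. The 3 stromal and epithelial markers summed to at most 0.784 FPKM. Replicates of both SUDHL5 groups differed little beyond read sampling (chi-square per degree of freedom 1.9 to 5.1, against 6.57 to 88.5 within the other groups), so their small spread may be technical, although the labels call all replicates independent experiments.

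Much of the set was weakly expressed. Of the 47, 24 members passed the filter on low values (3 or more libraries of the table at 1 FPKM or above) in the 4 lines and 17 in OCI-LY19R and OCI-LY19S, all 17 being among the 24. The other 23 passed neither filter, and of these 21 stayed below 1 FPKM in every library, 13 stayed below 0.1 FPKM, and 1, the read-through gene ABCF2-H2BE1, had 0 reads in all libraries. ABCF2-H2BE1 shares 1914 of its 2185 exon bases with ABCF2 on the same strand, so its 0 may be a limit of counting. The highest levels belonged to ABCE1, the ribosome recycling factor (14.3 to 50.7 FPKM over libraries), and ABCF1, a soluble ATPase of translation initiation (19.2 to 33.7 FPKM). ABCC1 (4.79 to 16.2 FPKM) and ABCC5 (2.05 to 22.3 FPKM) were the most abundant drug pumps.

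**Figure D1:**
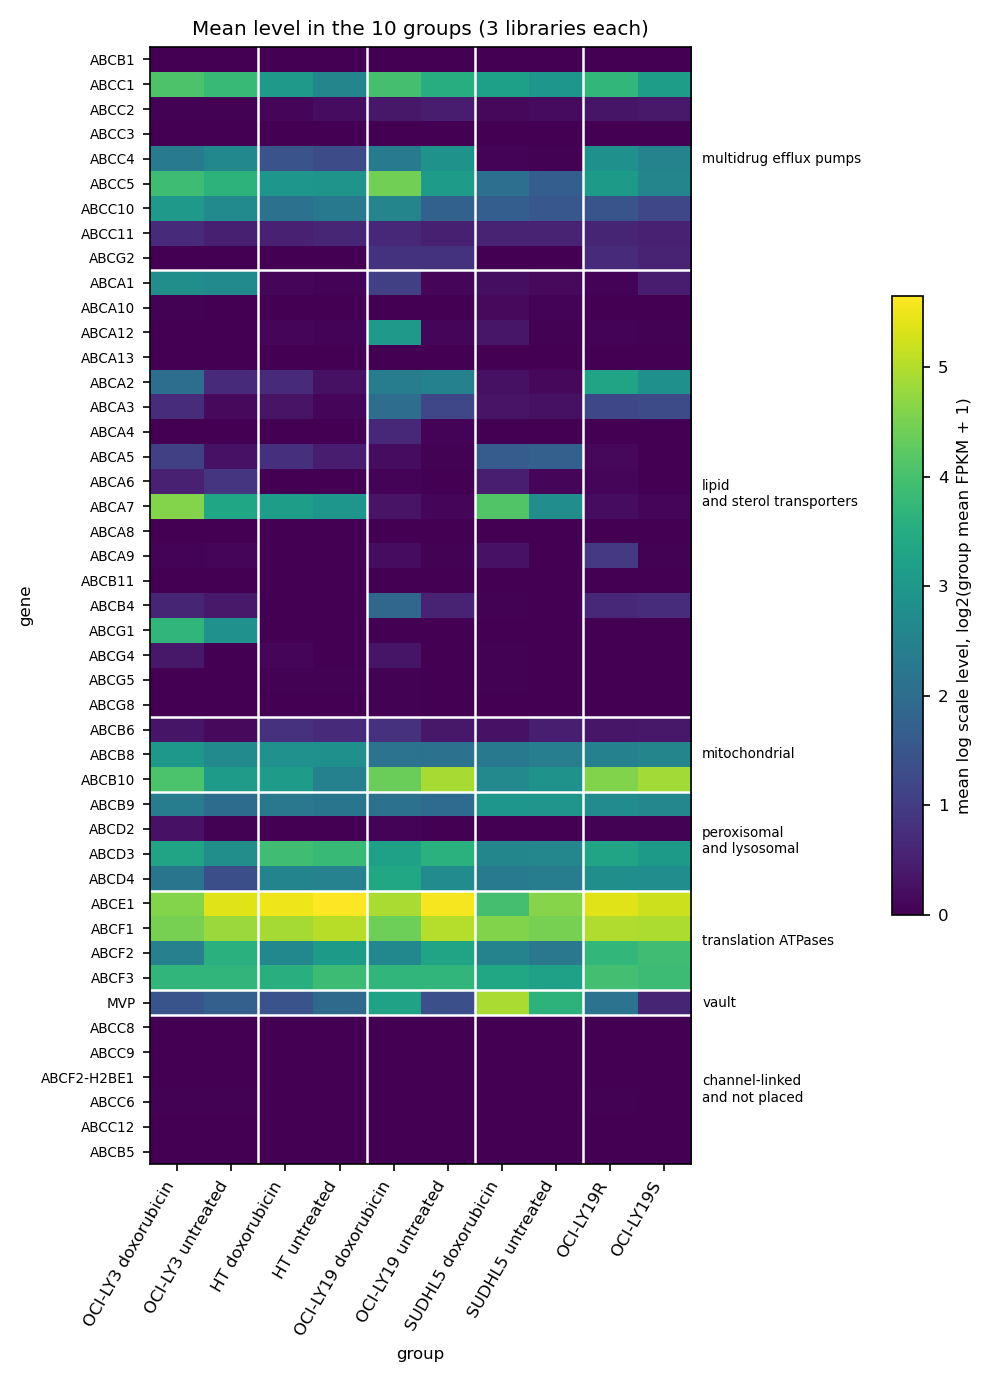
Mean level of 45 member genes (down the page, grouped by role) in the 10 groups (across), as log2(group mean FPKM + 1), each a mean of 3 libraries. The translation ATPases ABCE1 and ABCF1 are bright (high) in most columns, ABCB1 is at the dark end of the scale throughout, ABCG1 is high in OCI-LY3, and ABCA12 is high in treated OCI-LY19 cells.

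The classical anthracycline pump ABCB1 was barely detected anywhere. It had 10 reads in all over the 30 libraries, at most 2 in any, with reads in 8 libraries and a highest level of 0.0131 FPKM. By group, treated OCI-LY3 cells had 0, 0 and 1 reads and untreated ones 0, 0 and 1, treated HT cells 1, 0 and 0 and untreated ones 0, 0 and 2, and OCI-LY19R 0, 0 and 2 with 0, 0 and 1 in OCI-LY19S. Treated OCI-LY19 cells had 0, 1 and 0, untreated ones 0, 0 and 0, treated SUDHL5 cells 0, 0 and 0 and untreated ones 0, 1 and 0. A count of 0 allows up to 3 reads, which is 0.00384 to 0.0291 FPKM for this gene depending on the library, so no difference between groups was detectable at this depth; such limits cover counting error only.

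ABCG2 was seen in the OCI-LY19 background and hardly elsewhere. Its levels were 0.445, 0.971 and 0.907 FPKM in treated OCI-LY19 cells and 0.795, 0.822 and 0.739 FPKM in untreated ones, and these ranges overlapped. OCI-LY19R had 0.715, 0.628 and 0.503 FPKM and OCI-LY19S 0.525, 0.443 and 0.371 FPKM, which also overlapped. In the 6 groups of the other lines the reads per library were 3, 0 and 0 (treated) and 0, 3 and 0 (untreated) for OCI-LY3, 0, 3 and 1 (treated) and 1, 4 and 0 (untreated) for HT, and 0, 1 and 0 (treated) and 0, 1 and 0 (untreated) for SUDHL5. ABCG2 did not reach the filter in either table, and with no filter its log2 change was -0.02 ± 0.07 with doxorubicin in OCI-LY19 (limma adjusted p = 1) and 0.16 ± 0.09 in OCI-LY19R over OCI-LY19S (limma adjusted p = 0.530).

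Among the remaining pumps below the filter, ABCC2 (MRP2) reached at most 0.459 FPKM, ABCC3 (MRP3) at most 0.0158 FPKM and ABCC11 at most 0.909 FPKM. ABCC11 shares 293 exon bases with LONP2, a peroxisomal protease gene on the opposite strand. Whether reads were counted by strand is not given in the sources used here, so reads from such pairs cannot be told apart. The sulfonylurea receptors ABCC8 and ABCC9, which regulate potassium channels, stayed at or below 0.00898 FPKM. ABCB5, ABCC12 and ABCC6 had at most 0.0389 FPKM, ABCB11 (the bile salt export pump) at most 0.0135 FPKM, and the sterol exporters ABCG5 and ABCG8 at most 0.0512 FPKM. ABCA13 reached at most 0.0109 FPKM.

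Doxorubicin was followed by changes in the family that differed from line to line. Changes are differences of log2(FPKM + 1), treated minus untreated, with the standard error of a limma fit over all 24 libraries of the 4 lines. Rises and falls are changes whose p, adjusted by Benjamini-Hochberg across the 17645 genes tested, was under 0.05. In OCI-LY3, 13 of the 24 members tested were higher and 4 lower, where 40.4% and 14.3% of all genes tested were (54.7% in either direction). In HT 4 were higher and 4 lower, against 22.9% and 9.41% of all genes. With the replicate number as a block, 6 were higher and 3 lower in HT. OCI-LY19 had 11 higher, 2 of them tested only because they were high in its treated libraries, and 6 lower, against 34.5% and 23.7% (58.2% in either direction). SUDHL5 had 4 higher and 2 lower, against 18.6% and 19.9%. As shares of the 24, these are 54.2% and 16.7% in OCI-LY3, 16.7% and 16.7% in HT, 45.8% and 25% in OCI-LY19, and 16.7% and 8.33% in SUDHL5.

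The treated and untreated libraries did not overlap for 16 of the 24 members in OCI-LY3 (57.4% of all genes), 12 in HT (42.2%), 18 in OCI-LY19 (61.2%) and 14 in SUDHL5 (59.9%). Median changes were 0.29 for the members and 0.16 for all genes in OCI-LY3, 0.04 and 0.06 in HT, 0.15 and 0.08 in OCI-LY19, and 0.06 and 0.00 in SUDHL5. The OCI-LY3 shift of all genes depends on scaling: it was 0.01 after median-of-ratios scaling and 0.00 after quantile normalization, so a change in that line is to be read against 0.16. Of all calls, the share that was higher was 73.9% in OCI-LY3 (51.5% and 50.9% under those scalings), 70.9% in HT (55.9% and 52.2%), 59.3% in OCI-LY19 (51.9% and 44.7%) and 48.4% in SUDHL5 (38.1% on the TPM scale).

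**Figure D2:**
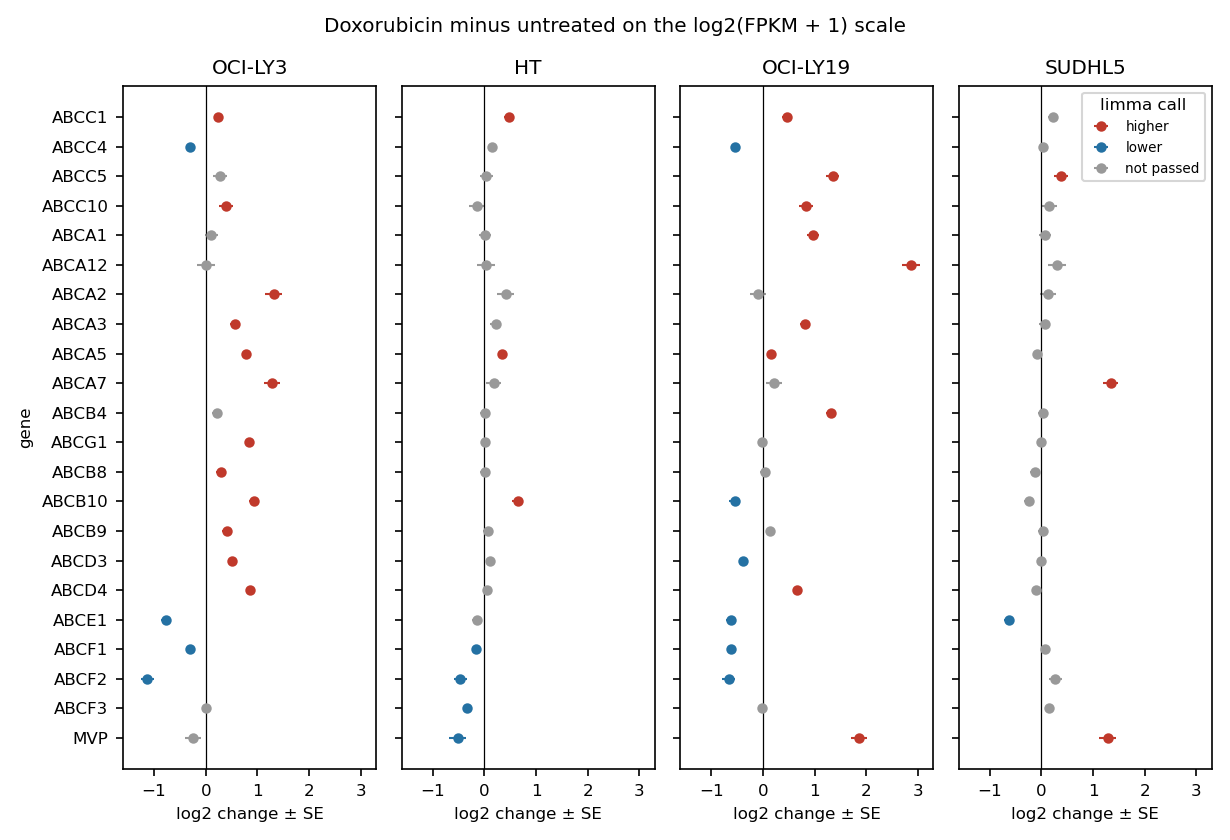
Doxorubicin minus untreated difference of log2(FPKM + 1) with its standard error for 22 of the 24 members tested, 1 panel per line, colored by limma's call; each difference compares 3 with 3 libraries. ABCE1 and ABCF2 are called lower in 3, and MVP runs from 1.86 in OCI-LY19 to -0.52 in HT.

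MVP moved in opposite directions between lines. It lies on the plus strand of chromosome 16 (ENSG00000013364.19; 29820394 to 29848039 in GENCODE 29 on GRCh38). It had 10.4, 6.87 and 8.36 FPKM in treated OCI-LY19 cells, against 1.9, 1.71 and 1.23 FPKM in untreated OCI-LY19 cells. All treated libraries were above all untreated ones, and the change was 1.86 ± 0.16 (limma adjusted p = 1.05e-08), or 5.29-fold in mean FPKM. SUDHL5 started higher and rose further: MVP had 32.2, 28.4 and 28.5 FPKM in treated SUDHL5 cells, against 11.8, 12 and 11.1 FPKM in untreated SUDHL5 cells, a change of 1.28 ± 0.16 (limma adjusted p = 3.37e-06). These groups did not overlap either, and every untreated SUDHL5 library stood above every treated OCI-LY19 library. In bulk RNA, fewer cells expressing a gene and less of its RNA per cell cannot be told apart.

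In HT the vault gene fell. MVP had 1.49, 2.12 and 1.52 FPKM in treated HT cells, against 3.34, 2.56 and 2.72 FPKM in untreated HT cells, with no overlap (change -0.52 ± 0.16, limma adjusted p = 0.0194). The call was lost without untreated replicate 1 (-0.43, adjusted p = 0.0909), treated replicate 1 (-0.46, adjusted p = 0.0737) or treated replicate 3 (-0.47, adjusted p = 0.0721). In OCI-LY3 the values overlapped: MVP had 1.35, 2.09 and 1.86 FPKM in treated OCI-LY3 cells, against 1.74, 3.35 and 1.89 FPKM in untreated OCI-LY3 cells (change -0.24 ± 0.16, limma adjusted p = 0.222). It passed as lower there after quantile normalization (-0.56, adjusted p = 0.00603) and median-of-ratios scaling (-0.43, adjusted p = 0.0292), scalings that also lower the median of all genes in this line.

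The response of MVP differed between OCI-LY19 and each other line by limma's interaction contrasts, adjusted over all genes. The OCI-LY3 response minus that of OCI-LY19 was -2.10 ± 0.23 (adjusted p = 4.02e-07), HT minus OCI-LY19 was -2.38 ± 0.23 (adjusted p = 1.13e-07), and OCI-LY19 minus SUDHL5 was 0.58 ± 0.23 (adjusted p = 0.0494). Before treatment SUDHL5 held more MVP than each other line, the smallest gap being that to HT (HT minus SUDHL5 -1.71 ± 0.16, adjusted p = 1.55e-08). Untreated OCI-LY3 and OCI-LY19 did not differ past the threshold (0.33 ± 0.16, adjusted p = 0.0900). A gene on the opposite strand, AC009133.1, overlaps the MVP locus but shares 0 exon bases with it in GENCODE 29. Its mean was 20.0 FPKM in treated and 51.4 FPKM in untreated OCI-LY19 cells, and 50.7 FPKM in treated and 76.3 FPKM in untreated SUDHL5 cells.

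OCI-LY19 libraries carry several lane tags in their names, and MVP was higher in treated cells within each tag that holds both groups. Among libraries tagged L6, treated replicates 1 and 3 had 10.4 and 8.36 FPKM and untreated replicate 1 had 1.90 FPKM, and among those tagged L5, treated replicate 2 had 6.87 FPKM and untreated replicate 2 had 1.71 FPKM. Libraries of HT share 1 tag, as do those of SUDHL5 and those of the resistance table.

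**Figure D3:**
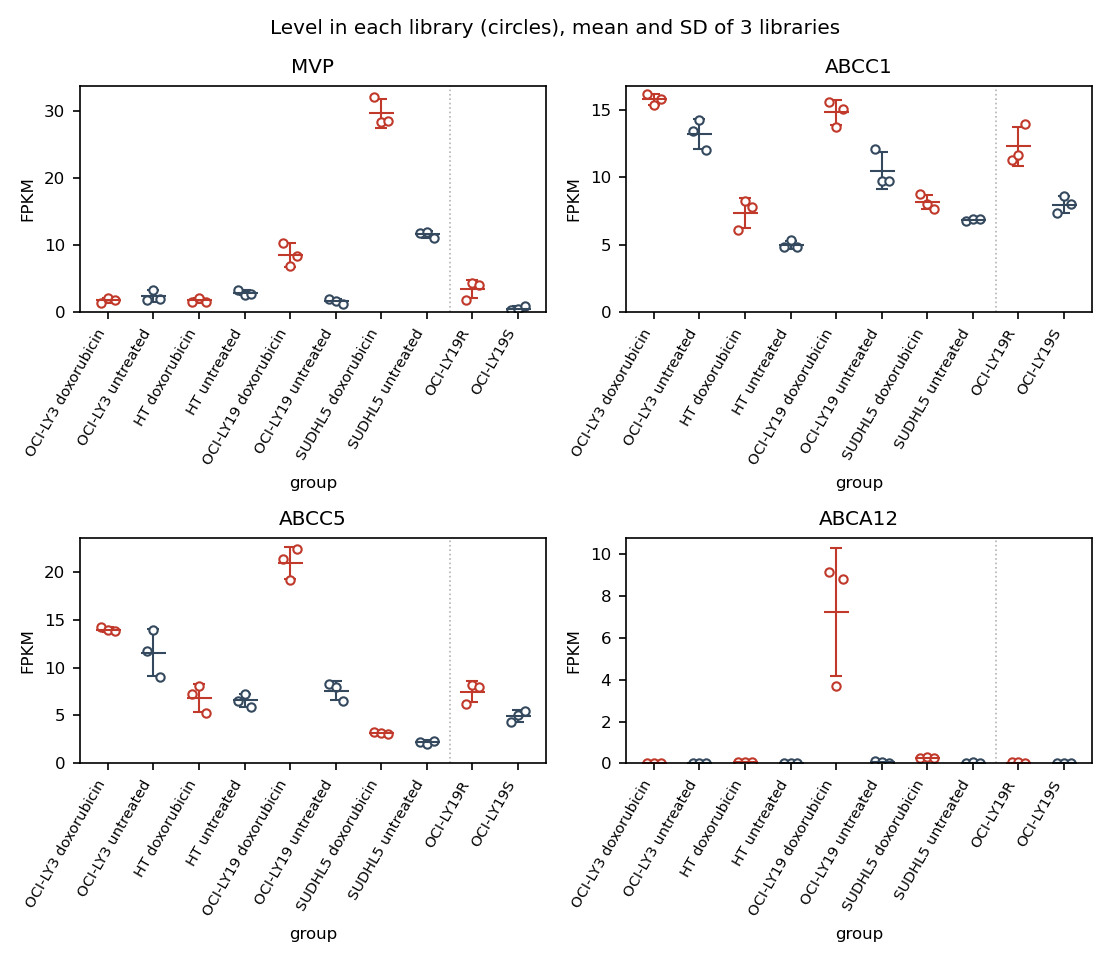
FPKM of MVP, ABCC1, ABCC5 and ABCA12 in each of the 30 libraries (circles), with the mean and SD of 3 libraries, doxorubicin and OCI-LY19R in red; the dotted line divides the tables, which were normalized separately. MVP is highest in treated SUDHL5 cells (28.4 to 32.2 FPKM), ABCC5 in treated OCI-LY19 cells (19.1 to 22.3 FPKM), and ABCA12 exceeds 1 FPKM only in treated OCI-LY19 cells.

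The 250 bases before the start of MVP are shown because MVP had a called change in 3 lines. It also had the largest change of the members tested in the resistant cells, selected into that test by its OCI-LY19R libraries. They come from the RefSeq promoter table (GRCh38.p14), which lists 3 starts for this gene, and the window is chr16:29820144-29820393 on the plus strand. Capitals mark a CCAAT box, which here reads on the opposite strand.
MVP: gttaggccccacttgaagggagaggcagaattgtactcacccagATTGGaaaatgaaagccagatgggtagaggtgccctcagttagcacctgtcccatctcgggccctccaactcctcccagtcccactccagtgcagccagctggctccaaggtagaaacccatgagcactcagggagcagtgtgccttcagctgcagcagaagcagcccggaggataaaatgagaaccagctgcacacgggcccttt
The motifs searched, on both strands, were the CCAAT box by those letters, the E-box, the GC box, the TATA box and the p53 half-site consensus. The E-box was read as CANNTG and can match by its loose letters alone. The GC box was read as GGGCGG. For the TATA box the letters were TATAAA. The window holds 1 CCAAT match and 6 E-box matches, and 0 matches of the other motifs. Over all 35116 windows of that length in the table, 32% hold a CCAAT match, 61.8% an E-box, 42.6% a GC box, 10.7% a TATA box and 5.57% a p53 half-site match. Windows were found for 36 of the 47 members, 56 windows in all, and of these 21.4%, 71.4%, 44.6%, 10.7% and 14.3% held these motifs in the same order. Matches are letters only, and a motif can overlap another.

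Over all genes tested, 34.5% rose and 23.7% fell in OCI-LY19, and 40.4% and 14.3% in OCI-LY3. The shares were 22.9% and 9.41% in HT, and 18.6% and 19.9% in SUDHL5. Of the 9 multidrug efflux pumps, 4 were tested: ABCC1, ABCC4, ABCC5 and ABCC10. In OCI-LY19, 3 rose and 1 fell (median change 0.65); in OCI-LY3, 2 rose and 1 fell (0.26); in HT and SUDHL5, 1 each rose and 0 fell (0.09 and 0.19), and 0 were lower there at an unadjusted p below 0.05 or by voom on recovered reads. ABCC1, which exports anthracyclines and glutathione conjugates, had 15.6, 13.7 and 15.1 FPKM in treated OCI-LY19 cells, against 12.1, 9.69 and 9.7 FPKM in untreated OCI-LY19 cells. The groups did not overlap (change 0.46 ± 0.09, limma adjusted p = 0.00021). In HT it had 6.08, 8.2 and 7.77 FPKM in treated HT cells, against 4.79, 5.3 and 4.8 FPKM in untreated HT cells, again without overlap (change 0.48 ± 0.09, limma adjusted p = 0.000516).

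In the other lines the differences were 0.24 and 0.22. ABCC1 had 16.2, 15.4 and 15.8 FPKM in treated OCI-LY3 cells, against 13.4, 14.2 and 12 FPKM in untreated OCI-LY3 cells (change 0.24 ± 0.09, limma adjusted p = 0.0302), but this call rests on the scaling: the change was -0.016 after median-of-ratios scaling (adjusted p = 0.930) and it did not pass in 4 of the 6 leave-one-out fits. In SUDHL5 it had 8.71, 8.03 and 7.65 FPKM in treated SUDHL5 cells, against 6.74, 6.87 and 6.88 FPKM in untreated SUDHL5 cells (change 0.22 ± 0.09, 95% interval 0.03 to 0.41, limma adjusted p = 0.064), and passed after median-of-ratios scaling (0.24, adjusted p = 0.0391). Neither pair of groups overlapped. ABCC1 was 1 of 2 tested members, with ABCB8, whose response was not called different among the lines (limma F test, adjusted p = 0.134 and 0.0576).

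ABCC5, an exporter of cyclic nucleotides and nucleotide analogues, rose most in OCI-LY19. It had 21.3, 19.1 and 22.3 FPKM in treated OCI-LY19 cells, against 8.33, 7.97 and 6.52 FPKM in untreated OCI-LY19 cells (change 1.35 ± 0.13, limma adjusted p = 4.46e-08), with treated libraries all above untreated ones. SUDHL5 held less of it, with 3.31, 3.17 and 3.11 FPKM in treated SUDHL5 cells, against 2.24, 2.05 and 2.39 FPKM in untreated SUDHL5 cells (change 0.38 ± 0.13, limma adjusted p = 0.0273); this call was lost in 5 of 6 leave-one-out fits. ABCC10 (MRP7) had 5.72, 4.73 and 4.31 FPKM in treated OCI-LY19 cells, against 2.83, 2.42 and 1.8 FPKM in untreated OCI-LY19 cells (change 0.83 ± 0.14, limma adjusted p = 3.70e-05), a gap with no overlap. In OCI-LY3 it passed as well (7.33 ± 0.274 FPKM in treated and 5.48 ± 1.63 FPKM in untreated cells, change 0.39 ± 0.14, limma adjusted p = 0.0212), with overlapping libraries and not after median-of-ratios scaling (0.16, adjusted p = 0.344). ABCC10 shares 79 exon bases with the opposite-strand gene DLK2, which averaged 2.79 FPKM in treated and 1.15 FPKM in untreated OCI-LY19 cells.

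ABCC4 (MRP4), an exporter of cyclic nucleotides, went the other way. In OCI-LY19 it had 4.32, 4.37 and 3.44 FPKM in treated OCI-LY19 cells, against 6.92, 5.81 and 6.31 FPKM in untreated OCI-LY19 cells (change -0.55 ± 0.08, limma adjusted p = 6.73e-06), and in OCI-LY3 4.12, 3.94 and 3.98 FPKM in treated OCI-LY3 cells, against 5.37, 5.25 and 4.9 FPKM in untreated OCI-LY3 cells (change -0.30 ± 0.08, limma adjusted p = 0.00298). Neither pair overlapped. SUDHL5 had almost none, 0.00818, 0.0621 and 0.0454 FPKM in treated and 0.0044, 0.0357 and 0.0238 FPKM in untreated cells, and ABCC4 was among the 5 members that differed most between untreated lines (limma F test, adjusted p = 4.00e-17).

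Among the lipid and sterol transporters tested, at least 1 rose in each line and 0 were called lower. Of those not tested, ABCA6 fell in OCI-LY3 when fitted with no filter (change -0.32 ± 0.07, limma adjusted p = 0.00126). ABCG4, also not tested, rose there (0.36 ± 0.03, limma adjusted p = 1.87e-08). Of 18 members 8 were tested. Of these, 5 rose in OCI-LY3 (median change 0.68), 5 in OCI-LY19, 1 in HT (0.11) and 1 in SUDHL5 (0.06). Over all genes tested, 40.4% rose in OCI-LY3, 34.5% in OCI-LY19, 22.9% in HT and 18.6% in SUDHL5. None of the 8 was lower at an unadjusted p below 0.05 or by voom on recovered reads. Of the 5 in OCI-LY19, ABCA12 and ABCB4 reached the filter only through the treated libraries of that line, so being tested at all required them to be high there. ABCA12, which loads glucosylceramides into the lamellar granules of skin cells, had 9.15, 3.69 and 8.85 FPKM in treated OCI-LY19 cells, against 0.10, 0.0771 and 0.0279 FPKM in untreated OCI-LY19 cells. The lowest treated library was far above the highest untreated one, and the change was 2.86 ± 0.17 (limma adjusted p = 6.66e-11). That error pools the spread of all 8 groups. The treated OCI-LY19 libraries themselves had a mean of 7.23 FPKM with an SD of 3.07 FPKM. Treated replicate 2 was the lowest of the 3, and without it the change was 3.23.

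With no filter, the ABCA12 change in OCI-LY19 had a limma adjusted p of 5.60e-10. In SUDHL5 it had 0.239, 0.33 and 0.239 FPKM in treated SUDHL5 cells, against 0.0316, 0.0481 and 0.00853 FPKM in untreated SUDHL5 cells, without overlap. This change did not pass (0.30 ± 0.17, limma adjusted p = 0.194). By limma it passed with a pseudocount of 0.1 (adjusted p = 0.000100), with SUDHL5 fitted alone (adjusted p = 0.00132) and on the TPM scale (adjusted p = 0.0129). By voom on recovered reads it passed as well (3.35, adjusted p = 0.0106). Untreated lines did not differ in ABCA12 past the threshold (limma F test, adjusted p = 0.964). Untreated reads summed to 60 in OCI-LY19, 24 in HT, 22 in SUDHL5 and 1 in OCI-LY3. At such levels the log2(FPKM + 1) scale is nearly flat, so this test could hardly show a difference. OCI-LY19R had 0.0467, 0.0512 and 0.0306 FPKM and OCI-LY19S 0.034, 0.0253 and 0.0248 FPKM. These 2 groups overlapped.

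The window before the ABCA12 start is given because this gene, selected into the test by its treated OCI-LY19 libraries, had the highest change listed. It is chr2:215138627-215138876 on the minus strand, from the same RefSeq table, which lists 2 starts for the gene, and capitals mark a match of the p53 half-site consensus.
ABCA12: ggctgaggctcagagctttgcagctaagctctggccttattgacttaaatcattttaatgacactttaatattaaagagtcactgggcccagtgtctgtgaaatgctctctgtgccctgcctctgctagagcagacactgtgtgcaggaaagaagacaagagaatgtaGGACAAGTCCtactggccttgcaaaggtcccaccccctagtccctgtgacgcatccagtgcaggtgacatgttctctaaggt
It also holds 1 E-box match, and no GC, CCAAT or TATA box. The window of the other listed start holds 6 E-box matches, 1 CCAAT box and 0 p53 half-site matches. Such a half-site match was found in 8 of the 56 windows of members (14.3%), against 5.57% of all windows. Genes with several starts count more than once, and the gap was not tested.

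The cholesterol exporters ABCA1 and ABCG1 differed by line before any drug. ABCG1, which passes cholesterol to high-density lipoprotein, had 12.6, 10.9 and 12.7 FPKM in treated OCI-LY3 cells, against 6.97, 6.22 and 5.69 FPKM in untreated OCI-LY3 cells (change 0.84 ± 0.06, limma adjusted p = 1.85e-09), and these groups did not overlap. In the other lines it was at most 0.0232 FPKM. ABCA1, which lipidates apolipoprotein A-I, had 6.54, 6.6 and 4.74 FPKM in treated OCI-LY3 cells, against 6.26, 5.89 and 4.25 FPKM in untreated OCI-LY3 cells (change 0.11 ± 0.12, limma adjusted p = 0.491). Those values overlapped. In OCI-LY19 it had 1.18, 0.712 and 1.36 FPKM in treated OCI-LY19 cells, against 0.0629, 0.052 and 0.0374 FPKM in untreated OCI-LY19 cells (change 0.98 ± 0.12, limma adjusted p = 9.43e-07), with no overlap.

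ABCB4, the phosphatidylcholine flippase of bile and the closest relative of ABCB1, rose in OCI-LY19. It had 2.79, 1.98 and 3.12 FPKM in treated OCI-LY19 cells, against 0.411, 0.449 and 0.476 FPKM in untreated OCI-LY19 cells (change 1.32 ± 0.09, limma adjusted p = 2.59e-10). No libraries overlapped. Like ABCA12 it was tested only because of the treated libraries, and with no filter the adjusted p was 1.37e-09. In OCI-LY3 it had 0.509, 0.587 and 0.436 FPKM in treated OCI-LY3 cells, against 0.252, 0.456 and 0.218 FPKM in untreated OCI-LY3 cells and did not pass (change 0.21 ± 0.09, limma adjusted p = 0.0507; 0.78 with adjusted p = 0.0466 by voom on recovered reads, and adjusted p = 0.0439 under a replicate block), and in HT and SUDHL5 it was at most 0.0507 FPKM. ABCA3, which fills the surfactant bodies of the lung with phospholipid, rose in OCI-LY19 (3.07 ± 0.506 FPKM in treated and 1.31 ± 0.344 FPKM in untreated cells, change 0.82 ± 0.10, limma adjusted p = 1.34e-06) and OCI-LY3 (0.652 ± 0.208 FPKM in treated and 0.11 ± 0.031 FPKM in untreated cells, change 0.57 ± 0.10, limma adjusted p = 0.000111).

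ABCA7, a phospholipid transporter, was high in 3 lines and near 0 in OCI-LY19. It had 23.5, 20.7 and 25.8 FPKM in treated OCI-LY3 cells, against 7.4, 11.5 and 8.35 FPKM in untreated OCI-LY3 cells (change 1.29 ± 0.15, limma adjusted p = 5.66e-07). In SUDHL5 it had 17.6, 15.3 and 15.8 FPKM in treated SUDHL5 cells, against 6.01, 5.73 and 5.69 FPKM in untreated SUDHL5 cells (change 1.34 ± 0.15, limma adjusted p = 7.10e-07). Both comparisons were free of overlap, and the OCI-LY3 and SUDHL5 responses did not differ past the threshold (difference -0.05 ± 0.21, adjusted p = 0.877). The HT groups overlapped (7.85 ± 1.62 FPKM in treated and 6.82 ± 1.55 FPKM in untreated cells, change 0.18 ± 0.15, limma adjusted p = 0.405), and the response in OCI-LY3 exceeded that in HT by 1.10 ± 0.21 (adjusted p = 0.000636). OCI-LY19 had 0.234 ± 0.039 FPKM in treated and 0.0605 ± 0.0245 FPKM in untreated cells (change 0.22 ± 0.15, limma adjusted p = 0.226), and passed as higher with a pseudocount of 0.1 (1.06, adjusted p = 6.51e-05).

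ABCA2, an endolysosomal lipid transporter, had 4.08, 2.04 and 3.26 FPKM in treated OCI-LY3 cells, against 0.581, 0.579 and 0.717 FPKM in untreated OCI-LY3 cells (change 1.31 ± 0.16, limma adjusted p = 8.68e-07). These groups did not overlap, whereas those of OCI-LY19 did (4.29 ± 1.38 FPKM in treated and 4.55 ± 0.544 FPKM in untreated cells, change -0.10 ± 0.16, limma adjusted p = 0.644). In HT the replicate numbers were taken to pair the libraries. There ABCA2 (0.59 ± 0.131 FPKM in treated and 0.194 ± 0.0502 FPKM in untreated cells, change 0.41 ± 0.16, limma adjusted p = 0.0535) and ABCA3 (change 0.22 ± 0.10, limma adjusted p = 0.118) passed once the replicate number was a block, at adjusted p = 0.0283 and 0.0386. ABCA5, a lysosomal member, rose in OCI-LY3 (1.09 ± 0.149 FPKM in treated and 0.21 ± 0.0377 FPKM in untreated cells, change 0.79 ± 0.06, limma adjusted p = 6.05e-09), HT (0.727 ± 0.0314 FPKM in treated and 0.368 ± 0.0321 FPKM in untreated cells, change 0.34 ± 0.06, limma adjusted p = 0.000497) and OCI-LY19. The OCI-LY19 call was marginal (0.144 ± 0.0852 FPKM in treated and 0.0236 ± 0.00902 FPKM in untreated cells, change 0.16 ± 0.06, limma adjusted p = 0.0401) and was lost in 5 of 6 leave-one-out fits and with the replicate number as a block (adjusted p = 0.0674).

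Several lipid transporters under the filter had reads mainly in treated libraries. ABCA4, the retinoid transporter of photoreceptors, had 218, 76 and 177 reads in treated OCI-LY19 cells, against 19, 7 and 2 in untreated ones, and at most 3 in any library outside these groups. ABCG4, a sterol exporter of the brain, had 46, 36 and 51 reads in treated OCI-LY3 cells, against 0, 0 and 1 in untreated ones. It had 65, 37 and 54 in treated OCI-LY19 cells, against 1, 0 and 0 in untreated ones. None of these pairs overlapped, and the highest level was 0.747 FPKM for ABCA4 and 0.340 FPKM for ABCG4. With no filter, limma's change was 0.58 ± 0.07 for ABCA4 in OCI-LY19 (adjusted p = 1.74e-06), and for ABCG4 0.36 ± 0.03 in OCI-LY3 (adjusted p = 1.87e-08) and 0.32 ± 0.03 in OCI-LY19 (adjusted p = 3.64e-08).

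Myeloid markers were also higher in treated OCI-LY19 cells: LYZ, CD14 and CSF1R summed to 14.5 to 18.9 FPKM in treated and 5.11 to 9.12 FPKM in untreated libraries, with CD14 at a mean of 0.0443 FPKM in treated and 0.165 FPKM in untreated cells. The 5 B cell markers summed to 209 to 211 FPKM in treated and 287 to 323 FPKM in untreated OCI-LY19 libraries. Among them CD79A averaged 39.6 FPKM in treated and 160 FPKM in untreated cells, and CD22 79.7 FPKM in treated and 32.9 FPKM in untreated cells. In SUDHL5 the 4 T and NK cell markers summed to 14.1 to 16.6 FPKM in treated and 3.93 to 4.47 FPKM in untreated libraries. There CD3D and CD3E were higher in treated cells and CD2 was at a mean of 0.0072 FPKM in treated and 0 in untreated cells. The 3 myeloid markers summed to 3.57 to 4.49 FPKM in treated and 0.239 to 0.448 FPKM in untreated SUDHL5 libraries. The part of these markers in the changes of MVP, ABCA12, ABCC5, ABCB4 and ABCA7 was not tested.

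Among the mitochondrial transporters ABCB10, an inner-membrane protein needed for heme synthesis, went in opposite directions. It had 16.9, 15.8 and 14 FPKM in treated OCI-LY3 cells, against 7.97, 7.01 and 7.97 FPKM in untreated OCI-LY3 cells (change 0.93 ± 0.10, limma adjusted p = 3.23e-07), and 7.15, 6.82 and 9.29 FPKM in treated HT cells, against 4.24, 4.3 and 5.13 FPKM in untreated HT cells (change 0.65 ± 0.10, limma adjusted p = 0.000106). In OCI-LY19, where untreated cells held the most, it fell and had 16.6, 21.5 and 21.1 FPKM in treated OCI-LY19 cells, against 29.1, 27.9 and 29.9 FPKM in untreated OCI-LY19 cells (change -0.54 ± 0.10, limma adjusted p = 0.000164). None of these 3 comparisons had overlapping libraries, and the OCI-LY3 response minus the OCI-LY19 response was 1.48 ± 0.15 (adjusted p = 1.21e-07). ABCB8 rose in OCI-LY3 (change 0.30 ± 0.10, limma adjusted p = 0.0123), a call lost after median-of-ratios scaling (0.07, adjusted p = 0.572), and ABCB6 stayed under the filter (0.0676 to 0.872 FPKM).

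Of the peroxisomal and lysosomal transporters, ABCD4, which works in lysosomal vitamin B12 export, rose in OCI-LY3 (3.6 ± 0.194 FPKM in treated and 1.55 ± 0.248 FPKM in untreated cells, change 0.85 ± 0.07, limma adjusted p = 8.80e-09) and OCI-LY19 (9.35 ± 0.332 FPKM in treated and 5.59 ± 0.523 FPKM in untreated cells, change 0.65 ± 0.07, limma adjusted p = 2.02e-07). ABCD3, an abundant peroxisomal membrane importer, rose in OCI-LY3 (0.51 ± 0.08, limma adjusted p = 1.20e-05) and fell in OCI-LY19 (-0.38 ± 0.08, limma adjusted p = 0.000245). The lysosomal peptide transporter ABCB9 rose in OCI-LY3 (0.41 ± 0.08, limma adjusted p = 0.000313), not past the threshold after median-of-ratios scaling (0.19, adjusted p = 0.0519), and it shares 1656 exon bases with OGFOD2 on the opposite strand. ABCD2 stayed under the filter, with 49, 23 and 28 reads in treated and 5, 2 and 3 in untreated OCI-LY3 cells.

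Of the 4 soluble ATPases of translation, most fell in 3 lines and only ABCE1 in SUDHL5. All 4 were tested; 3 fell in OCI-LY3 (median change -0.54), 3 in HT (-0.25), 3 in OCI-LY19 (-0.62) and 1 in SUDHL5 (median 0.11), and 0 rose in each of the 4 lines. By voom on recovered reads 0 rose as well, and at an unadjusted p below 0.05 1 was higher, in SUDHL5. Over all genes tested, 14.3% fell in OCI-LY3, 9.41% in HT, 23.7% in OCI-LY19 and 19.9% in SUDHL5. ABCE1 splits ribosomes for reuse after termination. It had 20.4, 28 and 21.8 FPKM in treated OCI-LY3 cells, against 43.8, 40.5 and 37 FPKM in untreated OCI-LY3 cells (change -0.77 ± 0.09, limma adjusted p = 6.32e-07). In OCI-LY19 it had 28.8, 30.5 and 29.4 FPKM in treated OCI-LY19 cells, against 49.9, 43.8 and 45.1 FPKM in untreated OCI-LY19 cells (change -0.63 ± 0.09, limma adjusted p = 7.18e-06). The treated libraries lay below all untreated ones in both lines and in SUDHL5 (14.9 ± 0.508 FPKM in treated and 23.6 ± 1.2 FPKM in untreated cells, change -0.63 ± 0.09, limma adjusted p = 1.46e-05), but not in HT (44.5 ± 3.93 FPKM in treated and 49.1 ± 1.45 FPKM in untreated cells, change -0.14 ± 0.09, limma adjusted p = 0.253).

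ABCE1 shares 276 exon bases with OTUD4, a gene on the opposite strand, which averaged 9.06 FPKM in treated and 15.8 FPKM in untreated OCI-LY3 cells, and 16.9 FPKM in treated and 19.6 FPKM in untreated OCI-LY19 cells. The part of these shared bases in the fall was not tested. ABCF2 had 3.62, 5.64 and 4.36 FPKM in treated OCI-LY3 cells, against 10.9, 11.3 and 10.7 FPKM in untreated OCI-LY3 cells (change -1.13 ± 0.13, limma adjusted p = 3.31e-07). It was lower without overlap in OCI-LY19 too (5.19 ± 0.497 FPKM in treated and 8.77 ± 0.428 FPKM in untreated cells, change -0.66 ± 0.13, limma adjusted p = 0.000153) and in HT (5.22 ± 1.27 FPKM in treated and 7.45 ± 0.498 FPKM in untreated cells, change -0.46 ± 0.13, limma adjusted p = 0.00816), where the call was lost without treated replicate 3 (-0.31, adjusted p = 0.0655). In SUDHL5 it did not pass (4.75 ± 0.0577 FPKM in treated and 3.8 ± 0.462 FPKM in untreated cells, change 0.27 ± 0.13, limma adjusted p = 0.107), and the OCI-LY3 response minus the SUDHL5 response was -1.39 ± 0.18 (adjusted p = 2.87e-06). ABCF1 fell in OCI-LY19 (20.2 ± 1.07 FPKM in treated and 31.5 ± 1.88 FPKM in untreated cells, change -0.62 ± 0.06, limma adjusted p = 2.63e-08), OCI-LY3 (change -0.30 ± 0.06, limma adjusted p = 0.000161) and HT (change -0.16 ± 0.06, limma adjusted p = 0.0444). The HT call did not hold with the replicate number as a block (adjusted p = 0.102) or in 4 of 6 leave-one-out fits. ABCF3 fell in HT (10.6 ± 0.954 FPKM in treated and 13.6 ± 0.608 FPKM in untreated cells, change -0.34 ± 0.08, limma adjusted p = 0.00257).

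Over the 4 lines, 18 members rose in at least 1 line and 9 fell in at least 1, and ABCB10, ABCD3 and MVP did both. The share of all genes that did so in at least 1 line was not computed, so these counts are a description only. The response differed among lines for 22 of the 24 by limma's F test, where 72.2% of all genes did, and the smallest adjusted p belonged to ABCA12 (1.35e-08), MVP (5.34e-08), ABCB4 (5.62e-08), ABCG1 (9.50e-08) and ABCB10 (1.00e-07). Of these, ABCA12 and ABCB4 reached the filter only through treated OCI-LY19 cells and ABCG1 only through OCI-LY3, so for these 3 the filter itself required a difference between lines and the rank is a description. Untreated lines differed for 22 of the 24, against 90.5% of all genes. Lines and lane tags partly coincide, so such differences cannot be assigned to the line alone. The smallest adjusted p there belonged to ABCG1 (3.30e-19), ABCC4 (4.00e-17), ABCA5 (9.55e-15), ABCA1 (4.46e-14) and ABCB10 (9.34e-14). In untreated cells ABCA5 averaged 2.32 FPKM in SUDHL5, 0.368 in HT, 0.21 in OCI-LY3 and 0.0236 in OCI-LY19, and ABCB10 averaged 29 FPKM in OCI-LY19, 7.65 in OCI-LY3, 6.5 in SUDHL5 and 4.55 in HT.

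In the resistant derivative, 2 of 17 members tested were higher, MVP and ABCC1, and 0 were lower. Of the 12785 genes tested in these 6 libraries, 3.11% were higher and 2.34% lower (5.44% in either direction). MVP was tested only because it was high in the OCI-LY19R libraries. With no filter neither MVP (limma adjusted p = 0.118) nor ABCC1 (limma adjusted p = 0.0936) passed. With the filter, 4 of the 17 were higher and 0 lower at an unadjusted p below 0.05, and voom on recovered reads called 3 higher and 0 lower. The groups did not overlap for 7 of the 17 members, against 32.7% of all genes. The median change was 0.12 for the members and 0.05 for all genes; the share of all calls that was higher was 57.0%, and 44.9% after median-of-ratios scaling.

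**Figure D4:**
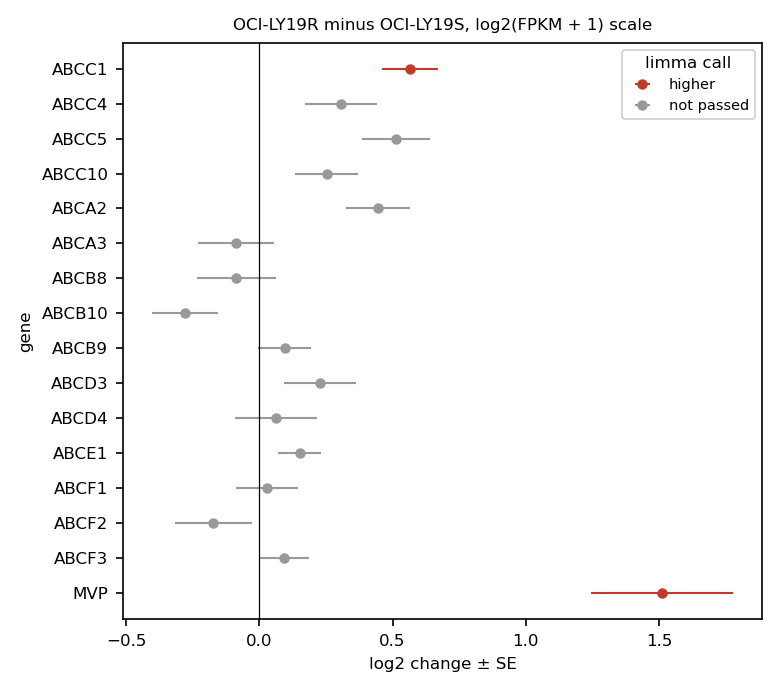
OCI-LY19R minus OCI-LY19S difference of log2(FPKM + 1) with its standard error for 16 of the 17 members tested (3 libraries a group), colored by limma's call. MVP at 1.51 and ABCC1 at 0.56 pass, whereas ABCC5 at 0.51 and ABCA2 at 0.45 do not. MVP was tested only because it was high in OCI-LY19R, and neither MVP nor ABCC1 passes with no filter.

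MVP was several times as abundant in OCI-LY19R as in OCI-LY19S. It had 1.85, 4.37 and 4.03 FPKM in OCI-LY19R, against 0.284, 0.396 and 0.853 FPKM in OCI-LY19S, with every resistant library above every parental one (change 1.51 ± 0.27, 6.69-fold in mean FPKM, limma adjusted p = 0.0286). MVP reached the filter of this table only through the OCI-LY19R libraries, and with no filter the call was lost (adjusted p = 0.118). It was also lost without OCI-LY19S replicate 2 (1.46, adjusted p = 0.102), OCI-LY19R replicate 2 (1.34, adjusted p = 0.123) or OCI-LY19R replicate 3 (1.39, adjusted p = 0.112). Untreated OCI-LY19 cells, which were normalized separately, averaged 1.61 FPKM of MVP, between OCI-LY19S (0.511 FPKM) and OCI-LY19R (3.42 FPKM). The opposite-strand gene AC009133.1 averaged 70.3 FPKM in OCI-LY19R and 73.3 FPKM in OCI-LY19S. Myeloid markers summed to 7.52 to 18.8 FPKM in OCI-LY19R and 5.39 to 12.9 FPKM in OCI-LY19S. The 5 B cell markers summed to 178 to 195 FPKM in OCI-LY19R and 208 to 326 FPKM in OCI-LY19S. For the 4 T and NK cell markers the sums were 13.2 to 17.4 FPKM in OCI-LY19R and 10.4 to 12.5 FPKM in OCI-LY19S. Most of these last sums was NKG7, with means of 15.3 and 11.6 FPKM. The part of these markers in the difference was not tested. In the authors' deposited table MVP has a log2 fold change of 2.64 ± 0.60 (adjusted p = 0.000306).

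ABCC1 had 11.3, 11.7 and 13.9 FPKM in OCI-LY19R, against 7.32, 8.57 and 8.01 FPKM in OCI-LY19S, a change of 0.56 ± 0.11 (limma adjusted p = 0.0329) without overlap. It no longer passed with the replicate number as a block (adjusted p = 0.0660), after median-of-ratios scaling (0.50, adjusted p = 0.0537), with no filter (adjusted p = 0.0936) or in 5 of 6 leave-one-out fits. The authors' deposited table gives 0.55 ± 0.15 (adjusted p = 0.00405). ABCC5 had 6.24, 8.19 and 8.0 FPKM in OCI-LY19R, against 4.29, 5.01 and 5.49 FPKM in OCI-LY19S, also without overlap, and did not pass here (change 0.51 ± 0.13, 95% interval 0.21 to 0.81, limma adjusted p = 0.0687). By voom on recovered reads it passed (0.59, adjusted p = 0.0484), and the authors' deposited table lists 0.52 ± 0.17 (adjusted p = 0.0239). ABCA2 was 8.78 ± 1.22 FPKM in OCI-LY19R, against 6.16 ± 0.632 FPKM in OCI-LY19S (SD, n = 3, change 0.45 ± 0.12, limma adjusted p = 0.0873). Untreated OCI-LY19 cells, normalized separately, averaged 10.5 FPKM of ABCC1, between the 2 groups. They averaged 7.60 FPKM of ABCC5, within the range of OCI-LY19R, and 4.55 FPKM of ABCA2, below both groups. The translation ATPases, each of which fell with the drug in at least 1 line, had changes of -0.17 (ABCF2), 0.03 (ABCF1), 0.09 (ABCF3) and 0.15 (ABCE1) in the resistant cells, and 0 of the 4 passed, also at an unadjusted p below 0.05 and by voom on recovered reads.

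Below the filter, 3 lipid transporters of 1 gene cluster differed in reads between OCI-LY19R and OCI-LY19S. ABCA8, ABCA9, ABCA6, ABCA10 and ABCA5 lie in this order in a run of 5 genes on the minus strand of chromosome 17, from 68867292 to 69327244 in GENCODE 29 on GRCh38. ABCA9 had 201, 252 and 211 reads in OCI-LY19R, against 3, 5 and 24 in OCI-LY19S, which is 0.666, 1.06 and 0.983 FPKM in OCI-LY19R and 0.0181, 0.027 and 0.0218 FPKM in OCI-LY19S. ABCA6 had 19, 37 and 17 reads in OCI-LY19R and 0, 1 and 1 in OCI-LY19S, and ABCA5 47, 37 and 16 in OCI-LY19R and 6, 1 and 11 in OCI-LY19S. Resistant and parental values did not overlap in FPKM for these 3 genes.

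With no filter, limma's change for ABCA9 was 0.89 ± 0.10 (adjusted p = 0.0475), and those of ABCA6 (0.09 ± 0.02, adjusted p = 0.193) and ABCA5 (0.10 ± 0.02, adjusted p = 0.163) did not pass. The authors' deposited table lists 5.26 ± 0.38 for ABCA9 (adjusted p = 6.66e-40), 5.88 ± 1.09 for ABCA6 (adjusted p = 3.32e-06) and 3.05 ± 0.66 for ABCA5 (adjusted p = 0.000133). ABCA8 had 0, 0 and 4 reads in OCI-LY19R and 0, 0 and 0 in OCI-LY19S, and ABCA10 had 1, 4 and 1 in OCI-LY19R and 1, 0 and 6 in OCI-LY19S. The 5 genes are similar in sequence, so reads may be shared between them, and ABCA10 and ABCA5 share 318 exon bases on the same strand.

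Members of this run also had more reads in treated than untreated SUDHL5 cells. ABCA9 had 61, 32 and 39 reads in treated cells, against 0, 4 and 1 in untreated ones, ABCA6 had 189, 120 and 89 in treated and 27, 23 and 25 in untreated cells, and ABCA10 had 28, 29 and 12 in treated and 9, 9 and 6 in untreated cells. With no filter, limma's changes were 0.26 ± 0.03 for ABCA9 (adjusted p = 8.78e-06), 0.37 ± 0.07 for ABCA6 (adjusted p = 0.000565) and 0.10 ± 0.01 for ABCA10 (adjusted p = 6.52e-06), while ABCA5, with the filter, had -0.08 ± 0.06 (adjusted p = 0.337). In OCI-LY3 the order was the reverse for ABCA6: 0.383, 0.505 and 0.397 FPKM in treated, against 0.861, 1.0 and 0.522 FPKM in untreated cells. These groups did not overlap, and with no filter the change was -0.32 ± 0.07 (limma adjusted p = 0.00126).

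**Figure D5:**
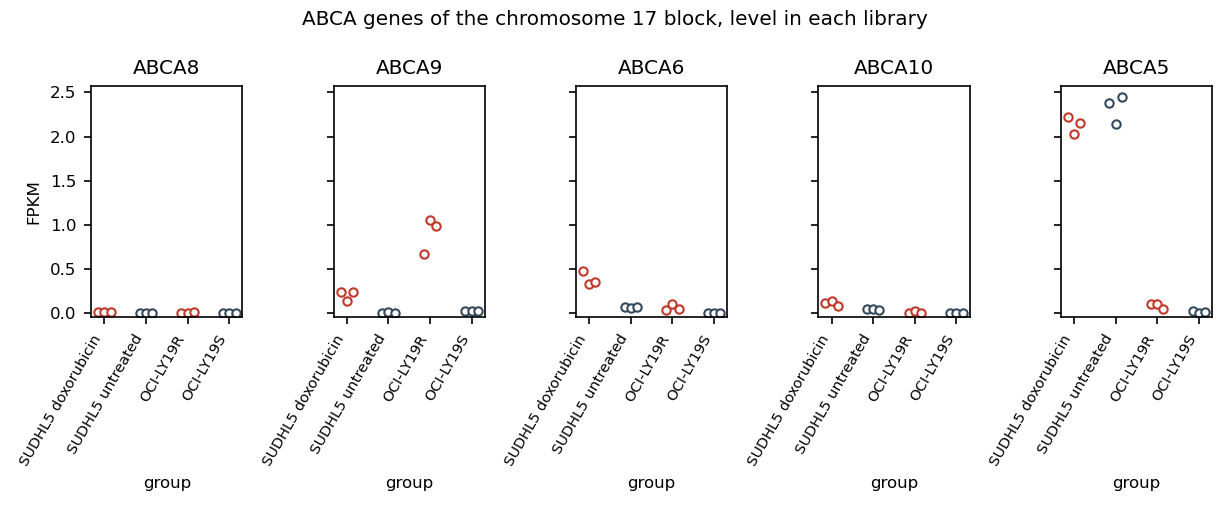
FPKM in each library of the 5 neighboring ABCA genes of chromosome 17, in their order along the chromosome, for treated and untreated SUDHL5 cells, OCI-LY19R and OCI-LY19S; circles are libraries, with treated cells and OCI-LY19R in red. ABCA9 stands at 0.666 to 1.06 FPKM in OCI-LY19R, ABCA6 at 0.324 to 0.471 FPKM in treated SUDHL5 cells, and ABCA5 at about the same level in both SUDHL5 groups.

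For ABCA1 the limma and deposited tests gave different calls. It had 0.0398, 0.047 and 0.0373 FPKM in OCI-LY19R, against 0.556, 0.177 and 0.354 FPKM in OCI-LY19S, with no overlap, and did not reach the filter. With no filter the change was -0.38 ± 0.10 (limma adjusted p = 0.202), and the authors' deposited table gives -3.19 ± 0.44 (adjusted p = 9.13e-11). The level in OCI-LY19S replicate 1, the library least like its replicates, was the highest of the 3. Untreated OCI-LY19 cells, normalized separately, averaged 0.0508 FPKM of ABCA1, against means of 0.0414 FPKM in OCI-LY19R and 0.362 FPKM in OCI-LY19S.

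Of 8 transporter and vault partners outside the family, 7 were tested. Of these, 4 rose in OCI-LY3, 5 in HT, 3 in OCI-LY19 and 3 in SUDHL5, with 1, 0, 2 and 4 lower. In the same order, 40.4%, 22.9%, 34.5% and 18.6% of all genes tested rose, and 14.3%, 9.41%, 23.7% and 19.9% fell. TAP1, an ABC peptide pump of antigen presentation whose symbol lies outside the rule, rose in every line (OCI-LY19 33.6 FPKM in treated and 10.3 FPKM in untreated cells, log2 change 1.62 ± 0.07, adjusted p = 9.20e-13; SUDHL5 18.7 FPKM in treated and 5.42 FPKM in untreated cells, log2 change 1.62 ± 0.07, adjusted p = 3.39e-12), by 1.30 in OCI-LY3 and 0.48 in HT. The vault component TEP1 also rose in every line, and most in OCI-LY19 (18.2 FPKM in treated and 5.66 FPKM in untreated cells, log2 change 1.52 ± 0.14, adjusted p = 1.56e-08). PARP4, the vault poly(ADP-ribose) polymerase, rose in OCI-LY3 (0.74), HT (0.50) and OCI-LY19 (0.15) and fell in SUDHL5 (-0.22). In HT, MVP fell while TEP1 and PARP4 rose. In OCI-LY19R 1 of the 7 partners rose, the peroxisomal import factor PEX19 (10.3 FPKM in OCI-LY19R and 7.06 FPKM in OCI-LY19S, log2 change 0.49 ± 0.09, adjusted p = 0.0346).

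Of 9 regulators and sterol-response genes 8 were tested. Of these, 4 rose in OCI-LY3, 3 in HT, 1 in OCI-LY19 and 1 in SUDHL5, and 0, 1, 2 and 4 fell. Among all genes tested, 40.4%, 22.9%, 34.5% and 18.6% rose in that order, and 14.3%, 9.41%, 23.7% and 19.9% fell. MYLIP, a ligase that degrades the low-density lipoprotein receptor and a target of the sterol sensors, rose in OCI-LY19 (32.8 FPKM in treated and 4.89 FPKM in untreated cells, log2 change 2.51 ± 0.12, adjusted p = 3.29e-12) and fell in SUDHL5 (3.96 FPKM in treated and 10.7 FPKM in untreated cells, log2 change -1.24 ± 0.12, adjusted p = 1.93e-07). YBX1, an RNA- and DNA-binding protein studied as a regulator of ABCB1, fell in OCI-LY19 (-0.70) and SUDHL5 (-0.47). Of 3 genes of anthracycline traffic outside the family 2 were tested, and LRRC8A, a subunit of the volume-regulated anion channel, rose in OCI-LY3 (0.54), OCI-LY19 (0.39) and SUDHL5 (0.29). In OCI-LY19R 0 of these regulators and 0 of these traffic genes passed by limma, while at an unadjusted p below 0.05 2 regulators and 1 traffic gene were higher and 1 of each was lower.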

How the data were processed

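RNA was sequenced from 30 libraries of 10 groups. The FPKM values of both tables were made and deposited by the authors; per the submitters' processing notes the tools were Trimmomatic, STAR and featureCounts and the build hg38, and neither the annotation release nor the strand setting is named in the labels or headers. FPKM were not counts, but whole reads could be recovered from their steps: with GENCODE 29 lengths 100.0% of the values above 0 came out whole within 0.01 read. For genes whose listed version is not in GENCODE 29 the smallest length giving whole reads was used. The table of the authors' own comparison of OCI-LY19R and OCI-LY19S holds, per the file headers, a mean signal, a log2 fold change with its error, a test score and p-values, which were deposited as they are printed here; its direction is OCI-LY19R over OCI-LY19S, checked by sign against the group means. Values set across the 2 FPKM tables were normalized separately.

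Genes that reached 1 FPKM in 3 or more libraries of a table were kept (17645 in the 4 lines, 12785 in OCI-LY19R and OCI-LY19S). limma 3.58.1 in R 4.3.3 was fitted to log2(FPKM + 1), a scale that understates changes of low genes, with the pseudocount 1 and an eBayes trend: 8 groups over 24 libraries (16 residual degrees of freedom), and 2 groups over 6 libraries (4 residual degrees of freedom). Tests were two-sided, with Benjamini-Hochberg adjustment over all genes of a fit and a threshold of 0.05. Errors after ± are SDs over 3 libraries for levels and standard errors for changes. If replicates are not separate cultures, p-values measure only technical spread. Deviations of same-numbered libraries from their group means correlated above 0.1 in every pair in HT (0.167, 0.320 and 0.347), where the numbers were therefore taken to pair the libraries, and not in the other comparisons. Calls and p-values printed for HT are from the fit without a block unless a block is named.

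The members and gene lists were chosen with earlier results of these data known. Named with their values are MVP, ABCB1, ABCC1 and ABCG2, the 6 members with the largest changes in each direction among those that passed in a comparison, members that passed in at least 2 lines in 1 direction, and those with the 5 smallest p of each F test; some genes enter the counts and are not reported here by name, members under the filter are given by range, and those named from reads were chosen after their values were seen. Alternatives were another pseudocount, no filter or one at FPKM 5, quantile normalization, median-of-ratios scaling, the TPM scale, a replicate block, a lane tag covariate, voom on recovered reads, each line alone and each library left out; 2 more, without the libraries of lane tag L5 and without SUDHL5, were chosen after seeing the data. The fits were tested on simulated data.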

Additional observations from a re-analysis of the deposited data

Results flagged for a closer look

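The drug response differed among the 4 lines for 22 members, by limma's F test of the response difference over 24 libraries, adjusted over all 17645 genes; 72.2% of all genes tested passed the same test, so a difference between lines was common. The values of 20 of them follow.

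Among the lipid transporters the adjusted p was 1.35e-08 for ABCA12, 5.62e-08 for ABCB4, 9.50e-08 for ABCG1, 8.39e-07 for ABCA5, 2.96e-05 for ABCA7, 8.50e-05 for ABCA2, 0.000115 for ABCA1 and 0.000541 for ABCA3. ABCA12 and ABCB4 changed most in OCI-LY19, and ABCG1 was expressed in OCI-LY3. ABCA12 and ABCB4 reached the filter only through treated OCI-LY19 cells, ABCA3 only through OCI-LY19 and ABCG1 only through OCI-LY3. Reaching the filter in that way by itself requires a difference between lines. The vault gene MVP had 5.34e-08, with called changes of both signs.

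The mitochondrial ABCB10 had 1.00e-07, rising in OCI-LY3 and HT and falling in OCI-LY19. For peroxisomal and lysosomal members the values were 1.94e-07 for ABCD4, 7.13e-06 for ABCD3 and 0.0246 for ABCB9. The pumps ABCC5, ABCC4 and ABCC10 had 2.30e-05, 7.09e-05 and 0.00144. For the translation ATPases the values were 4.59e-06 for ABCF1, 1.28e-05 for ABCF2, 0.00124 for ABCE1 and 0.00499 for ABCF3.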

How the results depend on the processing

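Of the alternatives computed for single members, 1748 kept direction and side of the threshold, 65 lost a call, 52 gained one and 1 reversed: ABCC1 in OCI-LY3 was -0.016 after median-of-ratios scaling. In OCI-LY3, 9 members were higher and 7 lower after median-of-ratios scaling and 9 and 6 after quantile normalization, where 13 and 4 were reported. With a filter at FPKM 5, which tests fewer genes, 2 were higher in HT and 6 in OCI-LY19. With each line fitted alone, 2 were lower in HT, 8 higher in SUDHL5 and 4 lower in SUDHL5, and with no filter 8 were higher in SUDHL5. For OCI-LY19R, 1 member was higher with a filter at FPKM 5, median-of-ratios scaling or a replicate block. With no filter 1 member was higher as well, but it was ABCA9 (limma adjusted p = 0.0475), and MVP and ABCC1 were both lost. Except for the filters, the cause was not tested.

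With 1 library left out, OCI-LY3 had 10 to 15 members higher and 4 lower, and HT had 4 to 5 higher and 1 to 4 lower. OCI-LY19 had 10 to 11 higher and 6 lower, SUDHL5 3 to 4 higher and 2 lower, and OCI-LY19R 0 to 2 higher and 0 to 1 lower. The count of 0 higher in OCI-LY19R arose without OCI-LY19S replicate 2, OCI-LY19R replicate 2 or OCI-LY19R replicate 3. The response F test called 21 to 23 members and the untreated one 22.

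With the replicate block, members higher numbered 14 in OCI-LY3, 6 in HT, 10 in OCI-LY19 and 5 in SUDHL5, and members lower 4, 3, 6 and 3. ABCB4 passed in OCI-LY3 (adjusted p = 0.0439) and ABCA5 was lost in OCI-LY19 (adjusted p = 0.0674) under it, and in SUDHL5 ABCB10 (-0.24, adjusted p = 0.0425) and ABCC1 (0.22, adjusted p = 0.0346) passed. Outside HT the numbers were not taken to pair the libraries. In OCI-LY3 all 3 numbers and in OCI-LY19 2 of 3 also share a name tag, whose meaning the labels do not give, and 1 of 3 numbers in OCI-LY3, 2 in OCI-LY19, 0 in SUDHL5 and 1 in the resistance table correlated best with their own partner. Without the libraries of lane tag L5, chosen after seeing the data, 13 members were higher and 4 lower in OCI-LY3, and 12 higher and 6 lower in OCI-LY19. Without the SUDHL5 libraries, also chosen then, 12 were higher and 4 lower in OCI-LY3, 4 and 3 in HT, and 11 and 6 in OCI-LY19. That fit lost ABCC1 in OCI-LY3 (limma adjusted p = 0.0565) and ABCF1 in HT (limma adjusted p = 0.0786). Depth limits members under the filter, for which 3 reads set the lowest level that can be told from 0.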
